A study of Mus musculus with 15 samples.

Results

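The genes described here are 35 mouse genes whose products build the insulin secretory granule, fill it with processed hormone, or bring it to the plasma membrane and fuse it there. They were chosen by name for their function, with earlier results of these data known. They are set beside 22028 protein-coding genes of the GENCODE annotation (release 21 of the mouse series, GRCm38). The data were chromatin immunoprecipitation sequencing (ChIP-seq) profiles of H3K27Ac and H3K27Me3, the acetylated and trimethylated forms of lysine 27 of histone H3, in isolated pancreatic islets. Islets came from CBA males that entered the experiment at 10 weeks of age and were then fed for 9 or 10 weeks (the sources differ) on standard chow (RD), on a high-fat diet (HFD), or on the same high-fat diet with 0.8 mg of the pan-AMPK activator O304 per g of food (HFD-O304). About 600 pooled islets went into each immunoprecipitation. There were 15 samples, made up of 2 H3K27Ac and 2 H3K27Me3 samples per diet and 3 inputs. The authors merged the 2 replicates before they called peaks, so each mark and diet is represented by 1 peak list, and the spread between replicates cannot be given for any value below. No test between diets was possible, and all differences between diets are descriptions. In pooled islets, a mark carried by fewer cells and a weaker mark in every cell cannot be told apart.

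In a β-cell, insulin is packed into dense-core granules together with granins and the enzymes that cut and trim prohormones. Granules are tethered to the plasma membrane by Rab GTPases and their effectors, primed by Munc13, CAPS and RIM proteins, and fused by the SNARE proteins when a rise in calcium is read by synaptotagmins and related sensors. H3K27Ac marks active promoters and enhancers, while H3K27Me3 is laid down by Polycomb repressive complex 2 at silenced genes, and a given lysine can carry only 1 of these modifications.

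Enrichment is used below for the mean number of fragments that cover a base of a peak, divided by the number that would cover it if all kept fragments lay evenly over the mappable genome. The start site window reached 1 kb to either side of every annotated protein-coding transcript start, and the gene body window ran from 5 kb before to 5 kb after the gene. The H3K27Ac lists rest on 83773042 to 95218072 kept fragments and the H3K27Me3 lists on 54166902 to 74870300. The lowest enrichment that was called lay between 2.26 and 2.40 for H3K27Ac, and between 2.74 (RD) and 3.10 (HFD) for H3K27Me3, so a weak H3K27Me3 region had a higher bar to pass in HFD than in RD. As a check of the tissue, start site H3K27Ac was looked up at 10 β-cell marker genes. It was present at 6 (60%) in RD and at 7 (70%) in each of the other diets. Over all protein-coding genes the shares were 46.8% (RD), 52.7% (HFD) and 52.1% (HFD-O304), so these few markers lay only somewhat higher. Ins2, Pdx1, Mafa, Nkx6-1 and Ucn3 had start site H3K27Ac in every diet, and Iapp and G6pc2 in no diet. Ins1 lacked it in HFD-O304, Slc2a2 in RD, and Slc30a8 in RD and HFD. H3K27Ac was absent in all diets from the start sites of 5 macrophage markers and of 5 genes not expressed in pancreas. Among 8 acinar markers it was called at 1 in RD and at 0 in the other diets, among 5 endothelial markers at 1, 0 and 0, among 6 duct markers at 2, 2 and 3, and among 6 Schwann cell and neuron markers at 3 in each diet. Among 5 α-cell markers it was found at 1, 1 and 2 and among 3 δ-cell markers at 1 in each diet, so these lists do not resolve the minor endocrine cells.

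Sequences are given for the members whose start site marks differed from the rest. The stretch before the start is shown for Rab3a, Scg2 and Cplx1, and for Unc13a as a member that carried H3K27Ac in every diet. They were taken from RefSeq promoters (GRCm38.p6) and cut at the first annotated start. The reference is the C57BL/6J genome and the mice were CBA, so strain differences are not shown. Capitals mark CpG pairs.
Rab3a (chr8:70754453-70754678, plus strand): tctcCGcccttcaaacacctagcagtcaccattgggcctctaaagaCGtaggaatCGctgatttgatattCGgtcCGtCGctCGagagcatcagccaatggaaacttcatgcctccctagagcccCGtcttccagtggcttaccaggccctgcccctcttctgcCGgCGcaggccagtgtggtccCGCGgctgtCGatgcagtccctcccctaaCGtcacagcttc
Scg2 (chr1:79440121-79440276, minus strand): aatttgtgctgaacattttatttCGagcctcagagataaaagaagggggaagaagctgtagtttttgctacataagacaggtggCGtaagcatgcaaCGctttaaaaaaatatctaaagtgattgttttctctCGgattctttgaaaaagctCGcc
Cplx1 (chr5:108550028-108550277, minus strand): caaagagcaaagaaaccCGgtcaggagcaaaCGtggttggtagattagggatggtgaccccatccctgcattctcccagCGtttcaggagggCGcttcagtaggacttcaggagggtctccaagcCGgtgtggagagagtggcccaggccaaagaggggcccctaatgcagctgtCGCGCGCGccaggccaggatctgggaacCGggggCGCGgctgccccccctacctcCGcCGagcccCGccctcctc
Unc13a (chr8:71671758-71672007, minus strand): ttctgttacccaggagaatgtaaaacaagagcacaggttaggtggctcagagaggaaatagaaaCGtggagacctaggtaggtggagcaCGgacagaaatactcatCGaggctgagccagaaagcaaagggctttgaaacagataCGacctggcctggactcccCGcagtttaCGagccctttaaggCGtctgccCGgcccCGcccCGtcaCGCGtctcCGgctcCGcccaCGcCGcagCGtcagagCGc

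The Scg2 stretch held 5 CpG pairs in 156 bases (3.21 per 100 bases). Cplx1 held 15 in 250 (6 per 100), Rab3a 14 in 226 (6.19 per 100) and Unc13a 18 in 250 (7.20 per 100), so the promoter that lacked H3K27Ac in every diet, Cplx1, was close in CpG content to those of Rab3a and Unc13a. Over all members the ratio of observed to expected CpG within 500 bp of the 5′ end of the gene had a median of 0.655. The median over all protein-coding genes was 0.552, over genes with start site H3K27Ac in at least 1 diet 0.733, and over genes with none 0.215.

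Short motifs are shown because the member promoters held them more often than promoters in general. RE1 is the element bound by REST, a repressor of neuronal and neuroendocrine genes that β-cells lack. It was searched on both strands within 1 kb of start sites as TTCAGCACC, any 2 bases, and GGACAGC, with up to 3 of the 16 letters allowed to differ. Such a match lay near 10 of 35 members (28.6%), against 5.32% of 21938 genes with sequence. With at most 2 differing letters it was 7 members (20.0%) against 0.966%, and an exact match was held by 3 members (8.57%) against 0.105%. The 3 exact matches and 2 of the matches with a single differing letter read as follows. Matching letters are in capitals, with 5 flanking bases on each side.
Chga (chr12:102555233-102555260, plus strand): gaggaTTCAGCACCtcGGACAGCaccag
Chgb (chr2:132781789-132781816, plus strand): gggatTTCAGCACCccGGACAGCtccta
Snap25 (chr2:136714333-136714360, plus strand): gacctTTCAGCACCgcGGACAGCgatcc
Ptprn (chr1:75263153-75263180, minus strand): ctaggTTCAGaACCatGGACAGCgccat
Vgf (chr5:137030272-137030299, minus strand): ccggcTTCAGCACgctGGACAGCgcccg

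The other members with an RE1 match were Syt4, Cadps, Cplx2, Ptprn2 and Rph3al. The Syt4 match, not printed, also differed in a single letter. The cyclic AMP response element CRE, bound by CREB, was searched as TGACGTCA from 250 bases before to 50 bases after a start. It was found in 5 members (14.3%) against 3.08% of genes, with capitals marking the element below.
Vgf (chr5:137030200-137030217, plus strand): aacatTGACGTCAatggg
Scg2 (chr1:79440082-79440099, plus strand): cacgcTGACGTCAccggc
Pcsk1 (chr13:75089774-75089791, plus strand): agatcTGACGTCAagaga
Snap25 (chr2:136713430-136713447, plus strand): gctgcTGACGTCAaagga
Vamp3 (chr4:151057959-151057976, plus strand): cgtggTGACGTCAcgagc

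A match describes letters in the reference and does not show that a factor was bound. All 3 genes with an exact RE1 carried start site H3K27Ac in every diet, as did 85.7% of members and 45.1% of all genes. Of the members with a single differing letter, Ptprn had it in every diet, Vgf in HFD alone and Syt4 in no diet. Vgf and Scg2, 2 of the 3 members whose start site H3K27Ac was called in some diets and not in others, both held a CRE. The other members with a CRE, Snap25, Vamp3 and Pcsk1, carried start site H3K27Ac in every diet. A link between the element and the calls was not tested.

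H3K27Ac was called at the start sites of nearly all members in every diet. In RD 30 of 35 had it (85.7%), and 32 (91.4%) had it after either high-fat diet, where 46.8%, 52.7% and 52.1% of all protein-coding genes had it. A peak in all 3 diets was found at 30 members (85.7%), against 45.1% of all genes, and a peak in no diet at Syt4 and Cplx1 alone (5.71%), against 44.6%. A separate list of 64 other exocytosis genes, among them further synaptotagmins, syntaxins and Slp proteins, had the mark at 33, 42 and 41 start sites (51.6%, 65.6% and 64.1%), between the members and all genes. H3K27Me3 was rare at the members. It was called at the start site of 0 (RD), 1 (HFD) and 2 (HFD-O304) members, where 7.63%, 9.49% and 10.1% of all genes had it, and 12.3% had it in at least 1 diet. At a −log10 q of at least 5 the member counts were 0 in each diet, against 1.33%, 2.54% and 2.48% of all genes. Both marks within the same diet occurred at 0 members, against 5.16% of all genes and 7 of the 64 other exocytosis genes.

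**Figure D1:**
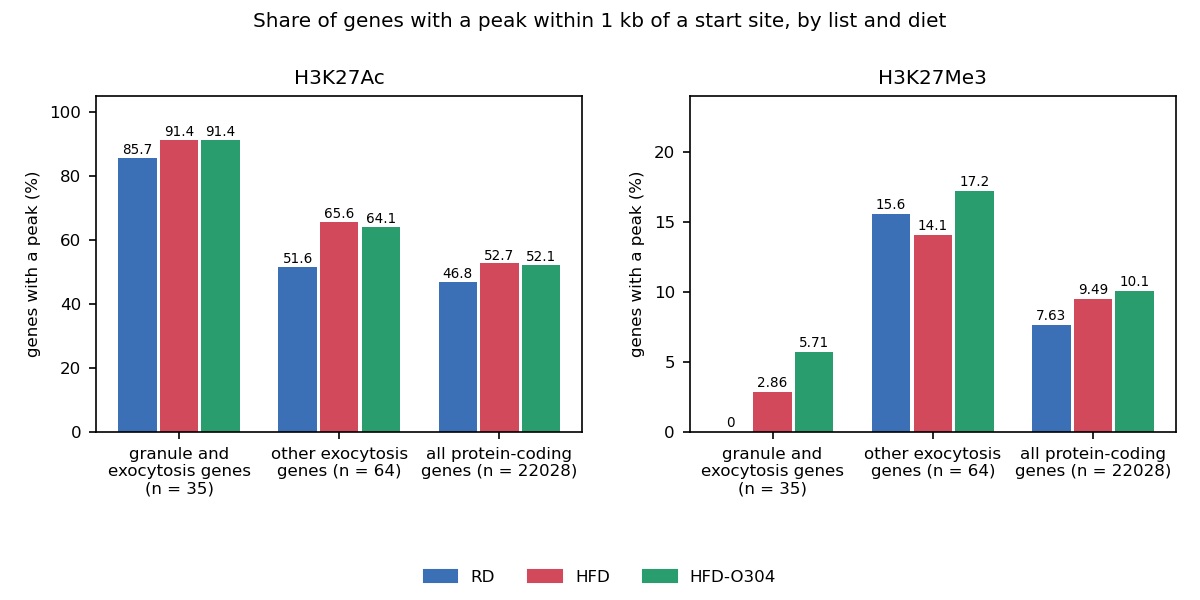
Percentage of genes (y axis) with an H3K27Ac (left) or H3K27Me3 (right) peak within 1 kb of a start site, for the 35 granule and exocytosis genes, 64 other exocytosis genes and all 22028 protein-coding genes; each bar is 1 peak list called on 2 merged replicates, so there are no error bars. H3K27Ac covers 85.7% to 91.4% of the 35 genes in the 3 diets and H3K27Me3 at most 5.71%.

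Where a peak was present, it was not stronger at the members than elsewhere, but it was wider. The median start site H3K27Ac enrichment over members with a peak was 3.25 (RD), 3.14 (HFD) and 3.25 (HFD-O304), and over all genes 3.16, 3.26 and 3.30. The members ranged from 2.48 to 5.20 in RD, from 2.56 to 5.09 in HFD and from 2.61 to 5.14 in HFD-O304. The median width was 1479, 1496 and 1512 bp, against 976, 1095 and 1071 bp over all genes.

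**Figure D2:**
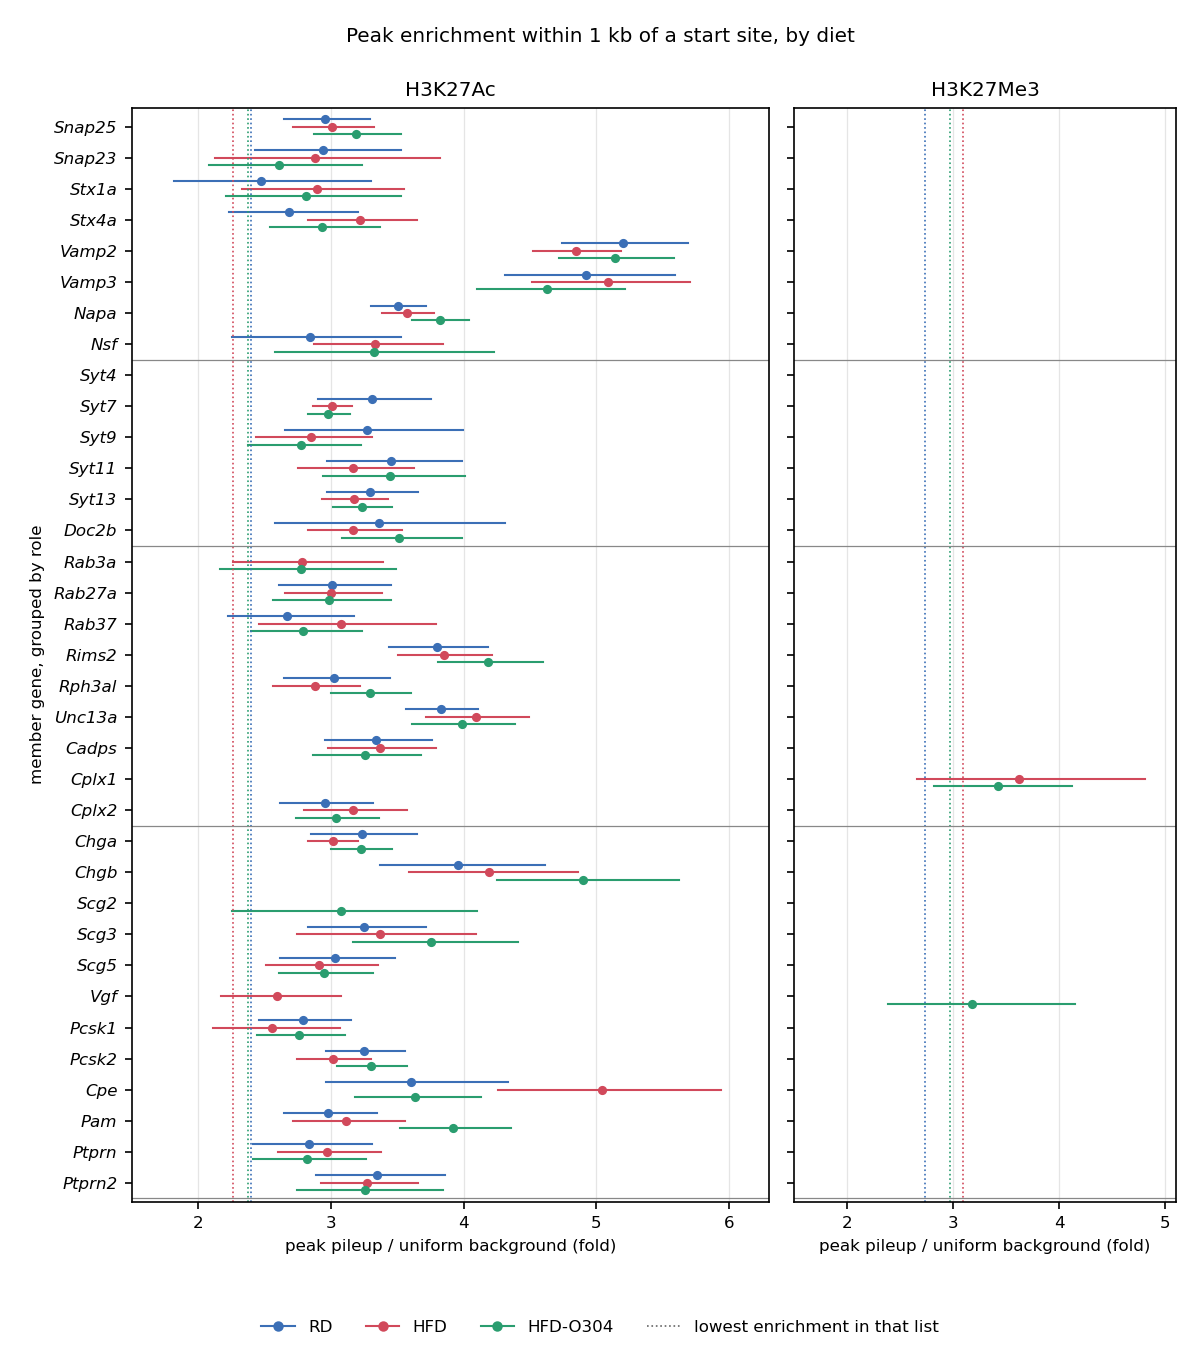
Enrichment (fold over uniform background, x axis) of the start site H3K27Ac peak (left) and H3K27Me3 peak (right) of each member (y axis, grouped by role) in RD, HFD and HFD-O304. Points are 1 peak list each, bars are 95% Poisson counting intervals and dotted lines the lowest enrichment called in that list; most H3K27Ac points lie between 2.5 and 4, Vamp2 and Vamp3 lie above 4 in every diet, and 3 H3K27Me3 points are present, at Cplx1 and Vgf.

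All 8 SNARE genes and genes for SNARE disassembly carried start site H3K27Ac in every diet. The vesicle SNAREs were the most strongly marked of these 8. Vamp2, the main v-SNARE of insulin granules, had an enrichment of 5.20 (RD), 4.85 (HFD) and 5.14 (HFD-O304), between the 97.5th and the 99.4th percentile of all start site peaks of the same list. Vamp3, the cellubrevin gene, had values of 4.92, 5.09 and 4.63, with the lowest at the 95.9th percentile. These values differ by less than their counting intervals, which for Vamp2 ran from 4.74 to 5.69 in RD and from 4.52 to 5.19 in HFD. The plasma membrane partners lay far lower. Stx1a, the t-SNARE syntaxin 1A, had the weakest peak of the group in RD at 2.48, and 2.89 and 2.81 in HFD and HFD-O304, over only 416, 622 and 585 bp. Stx4a, another t-SNARE of the β-cell membrane, had 2.69, 3.22 and 2.93. The SNAP25 family is represented by Snap25 with 2.96, 3.01 and 3.19 over about 2.5 kb in each diet (2508, 2530 and 2579 bp), and by its broadly expressed relative Snap23 with 2.94, 2.88 and 2.61 over 875, 325 and 706 bp. Of the genes that take SNARE complexes apart after fusion, Napa (α-SNAP) had one of the widest start site peaks of the members, 7038, 6990 and 6966 bp at an enrichment of 3.51, 3.58 and 3.82. Nsf, the ATPase that acts with it, had a narrow peak of 637, 1109 and 442 bp at 2.84, 3.33 and 3.33.

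Of 6 synaptotagmin and Doc2 genes, the family that includes the calcium sensors of exocytosis, 5 were marked in every diet. Syt7, a high-affinity sensor of insulin release, showed the largest difference in width between diets of all members. Its start site peak measured 1631 bp (RD), 10659 bp (HFD) and 10386 bp (HFD-O304), the last 2 at the 99.5th percentile of width. In RD, 3 separate peaks of 1175, 1631 and 3346 bp lay over the stretch that HFD and HFD-O304 covered with 1 peak, so the wider call joined pieces that were already marked. Its enrichment was 3.31, 3.01 and 2.98, and since enrichment is a mean over the peak, a joined peak includes weaker bases. Syt13, an atypical synaptotagmin without calcium binding, also had a wider peak after the high-fat diets, 2466 bp (RD), 3891 bp (HFD) and 5640 bp (HFD-O304), at 3.30, 3.17 and 3.24. Syt9 had 3.27, 2.85 and 2.78. Syt11, which likewise does not bind calcium, had 2 start site peaks in each diet. The one with the most fragments, at an internal start 3.31 kb into the gene, had 3.45, 3.17 and 3.44. The one at its 5′ start had 2.77, 3.75 and 3.30, with the highest value in HFD. The sensor Doc2b had 3.37, 3.17 and 3.51. The counting intervals of Syt9, Doc2b and the internal Syt11 start overlap between diets. None was computed for the 5′ Syt11 start. Syt4 had no H3K27Ac peak at its start site or in its gene body window in any diet and no H3K27Me3 peak at either place, which makes it the only member without a call of any kind.

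Of 9 genes for Rab proteins, their effectors and the docking and priming machinery, 7 had start site H3K27Ac in RD and 8 in the other diets. The active-zone genes led. Rims2, which encodes the Rab3 effector RIM2, had 3.80, 3.85 and 4.19, and Unc13a, the Munc13-1 priming factor, had 3.83, 4.09 and 3.99. Cadps, the CAPS1 priming protein, had 3.34, 3.37 and 3.26. Rab27a, the granule Rab that recruits granuphilin, was even across diets at 3.01, 3.0 and 2.98. Rph3al, the Rab effector Noc2, had 3.02, 2.88 and 3.29 at an internal start 11.9 kb into the gene. At its 5′ start the values were 2.60, 2.78 and 2.76. Cplx2, a complexin, had 2.95, 3.17 and 3.04. Rab37 has start sites far apart, and the one with the most fragments was a different one in HFD, so its values of 2.67, 3.07 and 2.79 are not of 1 place.

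Rab3a, the classical granule Rab of regulated exocytosis, was one of 2 members called in HFD and not in RD. In RD it had no H3K27Ac peak at the start site or anywhere in its gene body window. In HFD a peak at chr8:70754773-70755465 had an enrichment of 2.78 (interval 2.26 to 3.39), and in HFD-O304 a peak at chr8:70754773-70755342 had 2.77 (2.17 to 3.49). Both began downstream of the stretch printed above and lay at the 22nd and 16th percentile of start site peaks. The lower interval bounds reach below the lowest enrichment called in RD, 2.40, so the presence of the peak in the other diets was not separable from the calling threshold at this depth.

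Cplx1, the other complexin gene, stood apart from the members in the opposite way. It had no H3K27Ac peak in any diet and no H3K27Me3 peak in RD. H3K27Me3 was called across its start site in HFD at 3.62 (2.66 to 4.81) over 449 bp, and in HFD-O304 at 3.42 (2.82 to 4.12) over 1061 bp. Both peaks were weak, with a −log10 q of 4.0 and 3.68. The lower bound in HFD lies under the lowest H3K27Me3 enrichment called in RD, 2.74, and that in HFD-O304 just above it. The CpG-containing Cplx1 promoter, printed above, lies within the HFD-O304 peak, chr5:108549453-108550513.

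The granins and other granule cargo were marked unevenly. Chgb, the chromogranin B gene, had enrichments of 3.96 (RD), 4.19 (HFD) and 4.90 (HFD-O304) over a compact peak of 912, 818 and 913 bp. The ratio of HFD-O304 to RD was 1.24, with a counting interval of 1.01 to 1.52. Its percentile among start site peaks was 88.9, 89.0 and 97.9. Chga, the chromogranin A gene, was of average height at 3.23, 3.01 and 3.23 but its peak measured 1812 bp (RD), 6447 bp (HFD) and 5190 bp (HFD-O304), and the H3K27Ac-covered bases of its gene body window were 5.82, 13.5 and 10.6 kb. Scg3, a granin that sorts chromogranin A to the granule, had 3.25, 3.37 and 3.75, and Scg5, the 7B2 chaperone of PC2, had 3.03, 2.91 and 2.95.

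Scg2, the secretogranin II gene, was called at its start site in HFD-O304 alone, at 3.08 (2.25 to 4.10) over 330 bp. In all 3 diets it had a second H3K27Ac region more than 3 kb downstream of the start, in an exon, at 2.59, 2.40 and 2.52. Vgf, whose product is a granule peptide precursor, was called at its start site in HFD alone, at 2.59 (2.17 to 3.08) and 1002 bp. That peak covered the RE1 and CRE matches printed above. A further region in an exon near its 3′ end was present in all diets at 2.65, 2.73 and 3.08. In HFD-O304, H3K27Me3 was called 515 to 1064 bp before the nearest of 4 annotated Vgf starts, at 3.18 (2.38 to 4.15). This H3K27Me3 region lay in an intron, centred 3.11 kb downstream of the 5′ end of the gene. Of its bases, 123 lay over the place of the HFD acetylation peak. The 3 peaks at Scg2 and Vgf start sites have interval bounds under the lowest enrichment called in the lists without them. With the start window widened to 2 kb, the exonic Vgf region counted as a start site peak in every diet, and Vgf then carried both marks in HFD-O304.

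**Figure D3:**
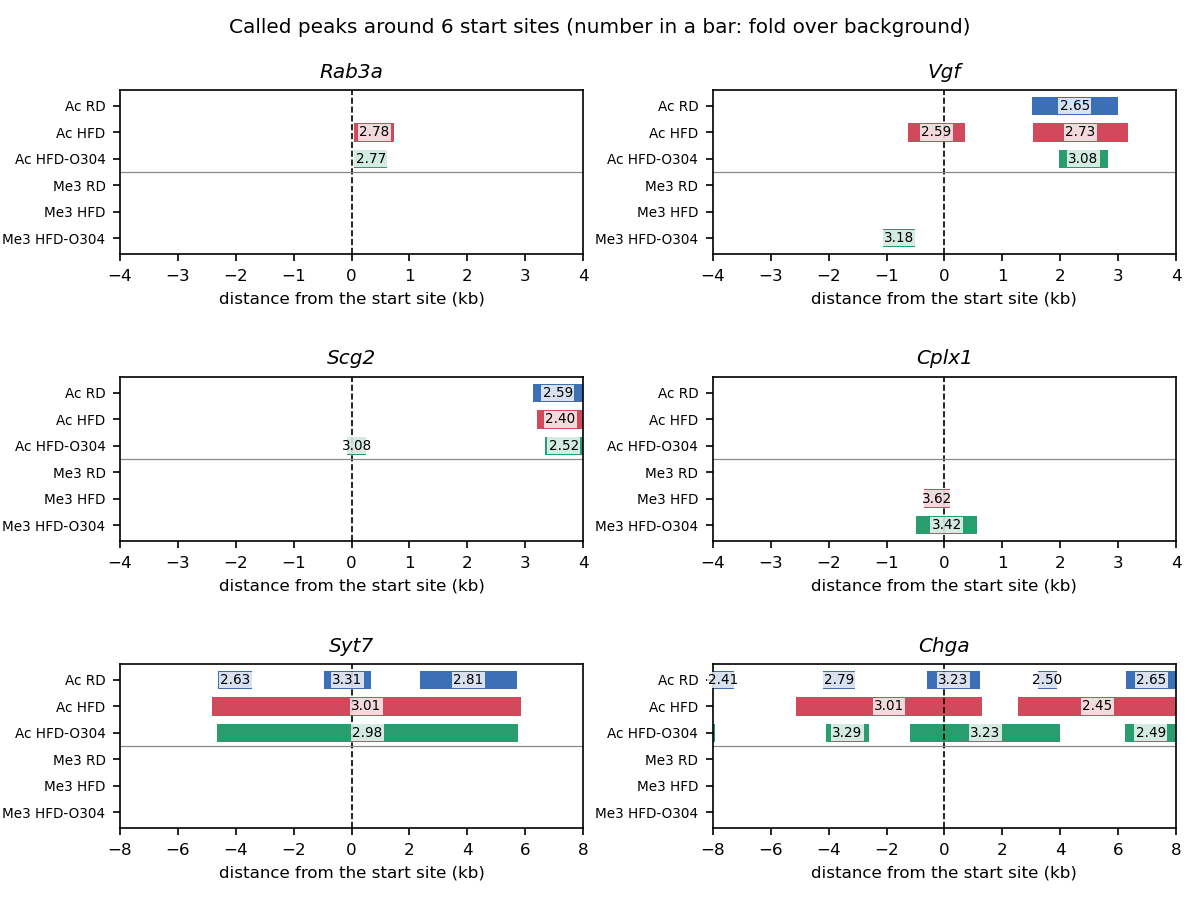
Called H3K27Ac (Ac) and H3K27Me3 (Me3) peaks by diet around the start sites of Rab3a, Vgf, Scg2, Cplx1, Syt7 and Chga; x axis, distance from the start site in kb in the direction of transcription, with bars from peak start to peak end and the enrichment printed in them. Rab3a has H3K27Ac in HFD and HFD-O304 and none in RD, Cplx1 has H3K27Me3 in the same diets, and the 3 RD peaks around Syt7 are 1 peak of 10659 bp in HFD.

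Among the enzymes and receptors of the granule, Cpe encodes carboxypeptidase E, which trims basic residues from insulin intermediates. Its enrichment was 3.60 (RD), 5.05 (HFD) and 3.63 (HFD-O304), so HFD lay above the other diets. The ratio of HFD to RD was 1.40 (1.09 to 1.80) and that of HFD-O304 to HFD 0.720 (0.585 to 0.886). The peak was narrowest in HFD, with 560 bp against 690 bp in RD and 1409 bp in HFD-O304, and the part of the width in the enrichment was not tested. The intervals of the ratios included 1 for the prohormone convertases. Pcsk1 (PC1/3) had 2.79, 2.56 and 2.76 with widths of 2065, 889 and 2202 bp, and Pcsk2 (PC2) had 3.25, 3.01 and 3.30 with widths of 3295, 3021 and 4151 bp. Pam, which amidates peptides, was marked at start sites far apart. At its internal start the values were 2.98 (RD), 3.43 (HFD) and 3.92 (HFD-O304), a ratio of HFD-O304 to RD of 1.32 (1.12 to 1.54), and at its 5′ start they were 3.32, 3.11 and 3.44. Ptprn and Ptprn2, which encode the granule membrane proteins IA-2 and IA-2β, had 2.84, 2.97 and 2.82 and 3.35, 3.27 and 3.26.

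Taking the members as a set, start site enrichment was nearly the same in the 3 diets. Among 28 members whose peaks overlapped between HFD and RD, the median ratio was 1.00, with 14 above and 14 below 1, and the ratios ran from 0.869 to 1.40. Over 9956 genes the median was 1.05. For HFD-O304 over HFD the median was 0.999 in 29 members and 1.01 in 10803 genes, and for HFD-O304 over RD 1.01 in 30 members and 1.06 in 9905 genes. The ratios with HFD share that list and are not independent of each other. A counting interval wholly above 1 was found for 1 of 28 members in HFD over RD (Cpe, 3.57%), against 8.76% of genes, for 0 of 29 in HFD-O304 over HFD, against 2.63%, and for 3 of 30 in HFD-O304 over RD (Chgb, Pam and Napa, 10.0%), against 9.11%. One wholly below 1 was found for 0, 1 (Cpe, 3.45%) and 0 members, against 0.974%, 2.28% and 0.899%. These member shares are of 0 to 3 genes and lie near or under those of all genes. These intervals cover counting error only, and the spread between mice was not measured. The number of members called in HFD and not in RD was 2 (5.71%), against 6.76% of all genes, and in RD and not in HFD 0, against 0.858%. Between the high-fat diets, 1 member (2.86%) was called in HFD-O304 and not in HFD, against 2.37%, and 1 in HFD and not in HFD-O304, against 2.96%. These shares lie close to those of all genes. When a −log10 q of at least 5 was asked of every list, 6 members (17.1%) were called in HFD and not in RD, against 11.3%, and 0 in RD and not in HFD, against 1.09%.

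Within the gene body windows, 32 members carried H3K27Ac in RD and 33 in each high-fat diet, against 54.2%, 60.7% and 59.6% of all genes. H3K27Me3 was present in 7, 7 and 10 members (20.0%, 20.0% and 28.6%), against 19.0%, 19.7% and 23.0%. Without peaks made up of at least 50% repeat-masked bases, 1, 1 and 3 members kept it, against 12.4%, 13.7% and 15.0% of all genes. Member genes are long, with a median of 40.9 kb against 17.3 kb, and a longer window meets more peaks. Among genes over 45.0 kb, all 16 members had H3K27Ac in every diet, against 70.0%, 77.2% and 75.8% of 5507 genes, and 6, 6 and 7 had H3K27Me3, against 37.7%, 37.3% and 42.3%.

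Away from start sites, H3K27Ac in these genes was mostly intronic and was called more often after the high-fat diets. Overlapping peaks of the 3 diets were joined into regions, and 94 regions lay off the member's own start sites. Of these, 7 held the start of another gene, and 87 were left, 79 of them in introns. RD called 34 of the 87, HFD 61 and HFD-O304 54, with 21 called in all diets, 22 in HFD alone, 16 in HFD-O304 alone, 15 in both high-fat lists and not RD, and 8 in RD alone. The regions not called in RD were weak. Their median highest −log10 q was 2.81, and 4 of 53 reached 5, while the regions called in all diets had a median of 4.70. The order of the diets depended on how the lists were cut. Peaks away from any start site numbered 40 (RD), 62 (HFD) and 56 (HFD-O304), a ratio of HFD to RD of 1.55, where all genes together had 1.71. A common enrichment cutoff for the 3 lists left 40, 40 and 55 peaks, and lists of equal size gave 40, 29 and 30, which turned the direction between RD and the high-fat diets.

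**Figure D4:**
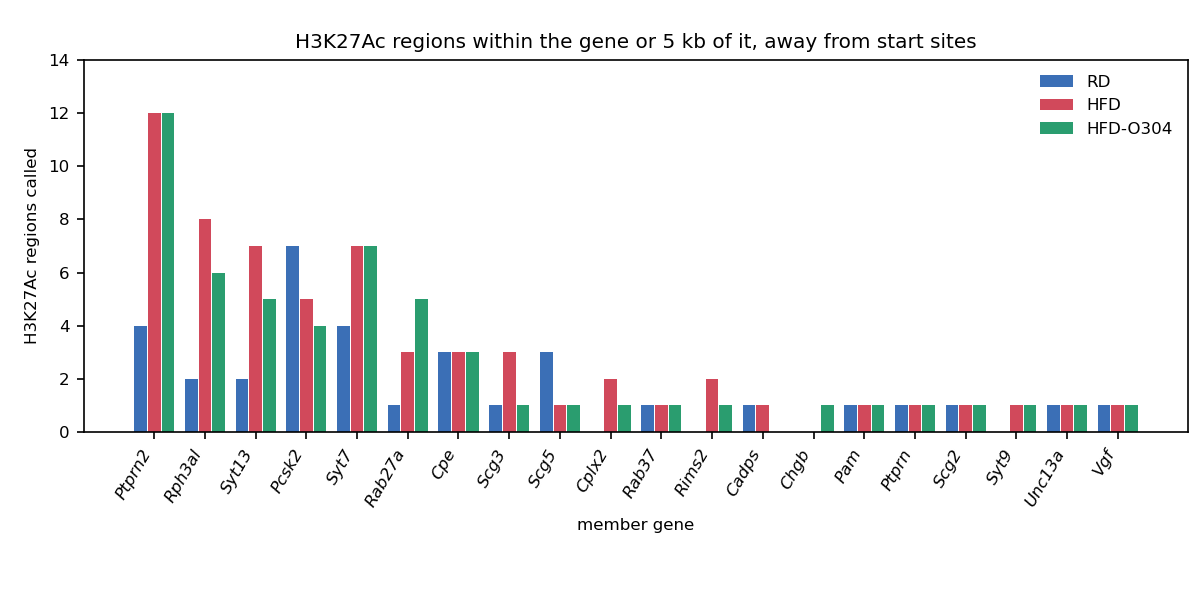
Number of H3K27Ac regions (y axis) called in RD, HFD and HFD-O304 within each member gene or 5 kb of it, leaving out start sites of any gene; members with at least 1 such region are shown. Ptprn2 goes from 4 regions in RD to 12 in each high-fat list, while Pcsk2 goes from 7 to 5 and 4.

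Ptprn2, the longest member at 791 kb, had 4 such regions in RD and 12 in HFD and in HFD-O304. Its strongest region, in an intron 214 kb from the start, had 5.66, 5.58 and 5.33 for H3K27Ac and overlapped an H3K27Me3 region at 6.56, 8.27 and 8.40, and all of its bases are repeat-masked. A region 522 kb into the gene had 2.66, 3.22 and 2.77 and no repeat bases. Rph3al had 2, 8 and 6 regions, Syt13 2, 7 and 5, Syt7 4, 7 and 7, and Rab27a 1, 3 and 5. The opposite order was seen at Pcsk2, with 7, 5 and 4, and at Scg5, with 3, 1 and 1. Counted by gene, 12 members (34.3%) had more H3K27Ac peaks in their window in HFD than in RD, against 18.3% of all genes, and 3 (8.57%) had fewer, against 3.33%. The 3 were Chga, Scg5 and Pcsk2, and at Chga the smaller count came with joined peaks and more covered bases. From HFD to HFD-O304, 4 members (11.4%) had more, against 8.36%, and 7 (20.0%) had fewer, against 10.5%. Shares in either direction were thus above those of all genes. All genes have shorter windows, and the part of window length in these shares was not tested. Syt7 is flanked by Lrrc10b, whose own start carried H3K27Ac at 3.29, 3.54 and 3.32 in the 3 diets. That peak is left out of the 4, 7 and 7 regions of Syt7 but is among the peaks counted in its window.

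H3K27Me3 in the member gene bodies lay almost only in repeats. Away from the start sites of any gene, 12, 10 and 18 peaks were called in the windows of Cadps, Pam, Pcsk2, Ptprn2, Rims2, Scg5 and Syt9, and all of them were at least 50% repeat-masked, where 61.2%, 58.4% and 63.5% of such peaks in all genes were. H3K27Ac regions overlapped H3K27Me3 regions at 9 places in member introns, and 8 of these were at least 50% repeat-masked. These regions were joined over diets. At the places 48.5 kb from the Rims2 start and 192 kb from the Ptprn2 start, no diet carried both marks. No input was subtracted in the peak calling, and whether reads of repeats account for these places was not tested.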

How the data were processed

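ChIP-seq for H3K27Ac and H3K27Me3 was analysed from 6 deposited peak lists, 1 per mark and diet, each made from 2 replicates. The authors mapped 50-nt paired reads to GRCm38 (Ensembl 96) with bowtie2, merged the replicates and ran MACS 2.1.2 in broad mode. The q-value cutoff was 0.01 per the file headers, no control and no local background were used, and 1 fragment was kept per position. The deposited columns are the peak length, the pileup (mean fragment coverage, a signal), the fold enrichment over background, and −log10 of the p-value and of the q-value. The deposited fold values were not used. Enrichment was recomputed as pileup over kept fragments times fragment size over 1.87e9 bases, and where several peaks met a start site window, the one with the most fragments was taken. The 95% intervals are exact Poisson intervals of the estimated fragment number and cover counting error only.

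An overlap of 1 bp counted. Windows came from GENCODE annotation of GRCm38. All 35 members are named, by role. The members, the list of 64 other exocytosis genes, the markers and the motifs were chosen with earlier results of these data known, and no list was tested. Peak lookup was tested on simulated data. Inputs had no list and were not used here. 24 members outside chromosome 18 matched a RefSeq promoter. Python 3.11.15, numpy 2.4.6, pandas 2.3.3 and scipy 1.17.1 were used. Alternatives covered the q cutoff, a common enrichment cutoff, list size, repeats, overlap, windows and peak choice.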

Additional observations from a re-analysis of the deposited data

How the results depend on the processing

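No paired analysis was possible because each list was called on merged replicates, which also left no replicate to omit. Of 219 pairs of a result and an alternative, 195 stayed within 1.5 times the count given above or within the 95% interval of the median over members, and 24 did not. All alternatives for peaks away from start sites were chosen after seeing the data. With −log10 q of at least 5, peaks away from start sites numbered 6 (RD), 9 (HFD) and 10 (HFD-O304). Members with H3K27Me3 in the gene body window were then 3, 3 and 4, those with H3K27Me3 at the start site 0 in HFD and 0 in HFD-O304, and those with start site H3K27Ac in HFD and not in RD 6, of which 3 also lacked it in HFD-O304. A common enrichment cutoff left 40 HFD peaks away from start sites, and lists of equal size left 29 in HFD and 30 in HFD-O304, with 1 member carrying start site H3K27Me3 in HFD-O304. Without repeat-rich peaks, 1, 1 and 3 members had H3K27Me3 in the gene body window. A start window of 500 bp left 1 member with H3K27Me3 in HFD-O304. With a window of 2 kb, 1 member had H3K27Ac in HFD and not in RD, 0 of these lacked it in HFD-O304, and 1 member carried both marks. With the 5′ end of the gene record alone, 1 member had H3K27Me3 in RD, 1 had H3K27Ac in HFD and not in RD, and 0 of these lacked it in HFD-O304. Medians of enrichment, width and ratio stayed within their intervals under every alternative run. The cause of each shift was not tested. Depth limits weak regions most, since the lowest H3K27Me3 enrichment called was 3.10 in HFD and 2.74 in RD.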

Other observations

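Among the 64 other exocytosis genes, 9 had start site H3K27Ac in HFD and not in RD, where 6.76% of all genes did. In RD and not in HFD there were 0, where 0.858% of all genes did. The 9 were Stxbp3, Snap47, Syt3, Syt6, Syt17, Rab27b, Sytl1, Doc2a and Erc2, of which Syt6, Syt17 and Rab27b also lacked it in HFD-O304. Slc30a8, the zinc transporter ZnT8 of the insulin granule, had start site H3K27Ac in HFD-O304 and in neither RD nor HFD. Syt1, the main neuronal calcium sensor, carried start site H3K27Me3 in at least 1 diet and H3K27Ac in none. These genes were picked out after their calls were seen.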
